A study of Mus musculus with 9 samples.

Results

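The nuclear genes for respiratory complexes II to V and for cytochrome c were compared between Tsc1-/- and WT CD8+ T cells. Members were the genes whose array annotation symbol is Cyc1 or Cycs, is Sdha, Sdhb, Sdhc or Sdhd, or begins with Uqcr, with Cox and a digit from 4 to 8, or with Atp5. These were 47 of the 17097 genes measured: 4 of complex II, 8 of complex III, Cycs alone for cytochrome c, 17 of complex IV and 17 of complex V. Each gene was read from the probe set, of those assigned to that gene alone, whose mean over the 9 arrays was highest.

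CD8+ T cells of mice that recognise OVA, a model antigen, gave 9 RNA samples, each hybridised to 1 array. All mice had the C57BL/6 background and Tsc1-fl/fl alleles, and their spleens were sorted at day 9 after Listeria monocytogenes infection. The 4 WT samples came from cre-negative mice and the 5 Tsc1-/- samples from mice positive for Granzyme B-cre, which acts in cells that switch on granzyme B, as activated CD8+ T cells do. The animals' age and sex, the share of cells that had deleted Tsc1, and whether each sample was a separate mouse were not stated. Cre was present in every Tsc1-/- mouse and in no WT mouse, so the effects of the transgene and of Tsc1 loss cannot be told apart.

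Complex II passes electrons from succinate to ubiquinone, complex III passes them from ubiquinol to cytochrome c, and complex IV passes them from cytochrome c to oxygen. Complexes III and IV pump protons, and complex V, the ATP synthase, lets them flow back through its membrane part (FO) to drive ATP synthesis in its catalytic head (F1). Complexes III, IV and V also hold subunits encoded by mitochondrial DNA, which were not analysed here. Tsc1 restrains the kinase mTORC1, which is known in other cells to promote the translation and transcription of genes for mitochondrial proteins, and activated T cells enlarge their mitochondria as they grow and divide.

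The targeted gene Tsc1 had a level of 7.66 ± 0.09 in WT (SD, n = 4) against 7.40 ± 0.09 in Tsc1-/- (SD, n = 5), with no overlap (exact two-sided permutation p = 0.00794, the smallest that 126 splits can give; limma, adjusted p = 0.114). Of the T cell markers, Cd3e read 11.81 and 11.82, Cd8a 12.08 and 12.10 and Cd8b1 11.52 and 11.50 in WT and Tsc1-/-. None of 9 measured passed, and 2 were higher at an unadjusted p under 0.05, the perforin gene Prf1 (0.30, adjusted p = 0.170) and the kinase gene Zap70 (0.20, adjusted p = 0.287, limma). Markers of other spleen cells read lower in most Tsc1-/- arrays. The mean level of 11 macrophage and monocyte genes was 6.54 to 7.36 in WT and 6.36 to 6.75 in Tsc1-/-, with WT replicate 4 the lowest WT array, and 10 of 11 differences were negative, of which Spic fell (-0.69, adjusted p = 0.0339, limma). Means were 6.04 to 6.69 in WT and 5.83 to 6.27 in Tsc1-/- for 9 B cell genes, and 6.74 to 7.14 and 6.54 to 6.83 for 7 dendritic cell genes. Those with the smallest p were the B cell gene Cd22 (-0.63, adjusted p = 0.0605) and the dendritic cell gene H2-DMb2 (-0.60, adjusted p = 0.0881, limma). The ranges of 5 erythroid genes (6.41 to 6.90 and 6.12 to 7.36) and of 7 neutrophil genes (6.82 to 7.68 and 5.82 to 8.02) overlapped, with the smallest p for Alas2 (-0.33, adjusted p = 0.494) and Elane (-0.36, adjusted p = 0.379, limma), and no gene of these 4 lists passed. The mean of 15 mitosis genes was 7.33 to 7.99 in WT and 8.24 to 8.51 in Tsc1-/-. Of them, 7 rose (46.7%, against 0.971% of all genes), Cdk1 (0.73), Kif11 (0.78), Nusap1 (0.80), Top2a (0.67), Ube2c (0.58), Aurkb (0.77) and Cenpe (0.70). Fits with the macrophage or the mitosis level as a covariate are given with the settings below.

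Most respiratory genes read slightly higher in Tsc1-/- cells, and those that passed the test encode small parts of complex III and complex V and the carrier cytochrome c. The complex III subunit gene Uqcr11 rose 1.34-fold, Uqcrq 1.30-fold, Cycs 1.29-fold and the ATP synthase gene Atp5k 1.28-fold, while no member fell. Every difference given is the log2 level in Tsc1-/- minus that in WT. The difference was positive in 41 of 47 members, against 48.2% of all genes, and its median was 0.17, against -0.01 over all genes.

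Each gene was tested with limma over all 17097 genes, with Benjamini-Hochberg adjustment and a threshold of 0.05 for the adjusted p. Of 47 members, 4 were called higher, or 8.51%, where 0.971% of all genes were, and 0 were called lower, where 0.31% were. At an unadjusted p under 0.05, 23 members were higher (9.83% of all genes) and 1 was lower (7.34% of all genes). The genotypes did not overlap in 16 members, or 34%, all higher in Tsc1-/- (5.08% of all genes), and in 0 lower (2.88% of all genes). In such bulk samples, a change in the share of cells with high levels and a change in RNA per cell cannot be told apart. The calls depended on single arrays and on the adjustment, as given with the settings below.

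**Figure D1:**
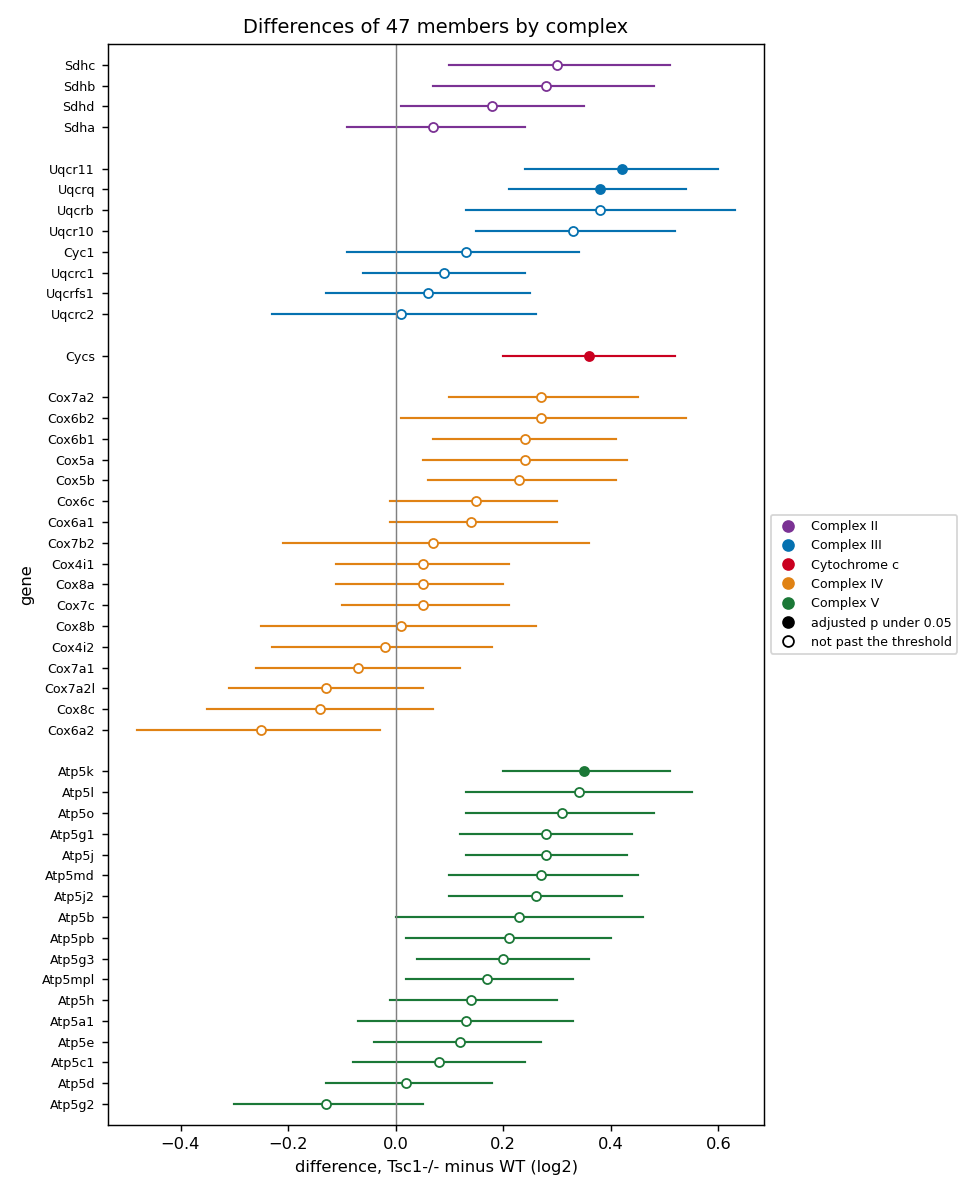
Difference of each of the 47 members, Tsc1-/- minus WT on the log2 scale, with 95% intervals from limma (4 WT and 5 Tsc1-/- arrays), sorted within each complex. Filled points passed an adjusted p under 0.05 and open points did not. Uqcr11, Uqcrq, Cycs and Atp5k are filled, with differences of 0.35 to 0.42, and the lowest value is that of Cox6a2 at -0.25.

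Cycs encodes somatic cytochrome c, the soluble carrier between complexes III and IV, which also forms the apoptosome when released into the cytosol. Its level was 10.12, 10.14, 10.22 and 10.24 in WT replicates 1 to 4 and 10.64, 10.50, 10.60, 10.51 and 10.46 in Tsc1-/- replicates 1 to 5. The lowest Tsc1-/- array lay 0.23 above the highest WT array, and Cycs rose by 0.36 (SE 0.07, adjusted p = 0.0390, limma). A dimmer Cycs probe set (WT mean 8.06) differed by 0.19 and the dimmest (WT mean 4.45) by -0.08, and their genotypes overlapped. With the mean of its 3 probe sets Cycs did not pass (0.16, adjusted p = 0.345, limma).

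Uqcr11 and Uqcrq encode small subunits of complex III that carry no redox centre. Uqcr11 read 8.98, 9.12, 9.19 and 9.16 in WT and 9.40, 9.49, 9.53, 9.54 and 9.69 in Tsc1-/-, so that all Tsc1-/- arrays lay above all WT arrays. It had the largest difference of the 47 members, 0.42 (SE 0.08, adjusted p = 0.0371, limma). Uqcrq read 10.11, 10.03, 10.22 and 10.15 in WT and 10.55, 10.50, 10.49, 10.38 and 10.59 in Tsc1-/-. It rose by 0.38 (SE 0.08, adjusted p = 0.0390, limma), again without overlap. Its other 3 probe sets differed by only -0.04, 0.01 and 0.06. They were much dimmer, with WT means of 7.25, 6.43 and 3.33 against 10.13, and a change may be hard to see at such levels. The Uqcrq call thus rests on 1 of 4 probe sets, and with the mean of the 4 it was lost (0.10, adjusted p = 0.400, limma).

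Atp5k encodes subunit e of the ATP synthase, a small membrane protein at the interface where synthase dimers join. Atp5k read 10.82, 10.88, 11.00 and 10.98 in WT and 11.24, 11.27, 11.25, 11.28 and 11.32 in Tsc1-/-. The gap between the groups was 0.24, and the SD of the Tsc1-/- arrays was only 0.03. It rose by 0.35 (SE 0.07, adjusted p = 0.0394, limma), and its further probe set differed by 0.29, also without overlap. The Uqcrq and Atp5k probe sets are among 11 of the 47 whose name ending (s or x) marks probes that can detect related transcripts.

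**Figure D2:**
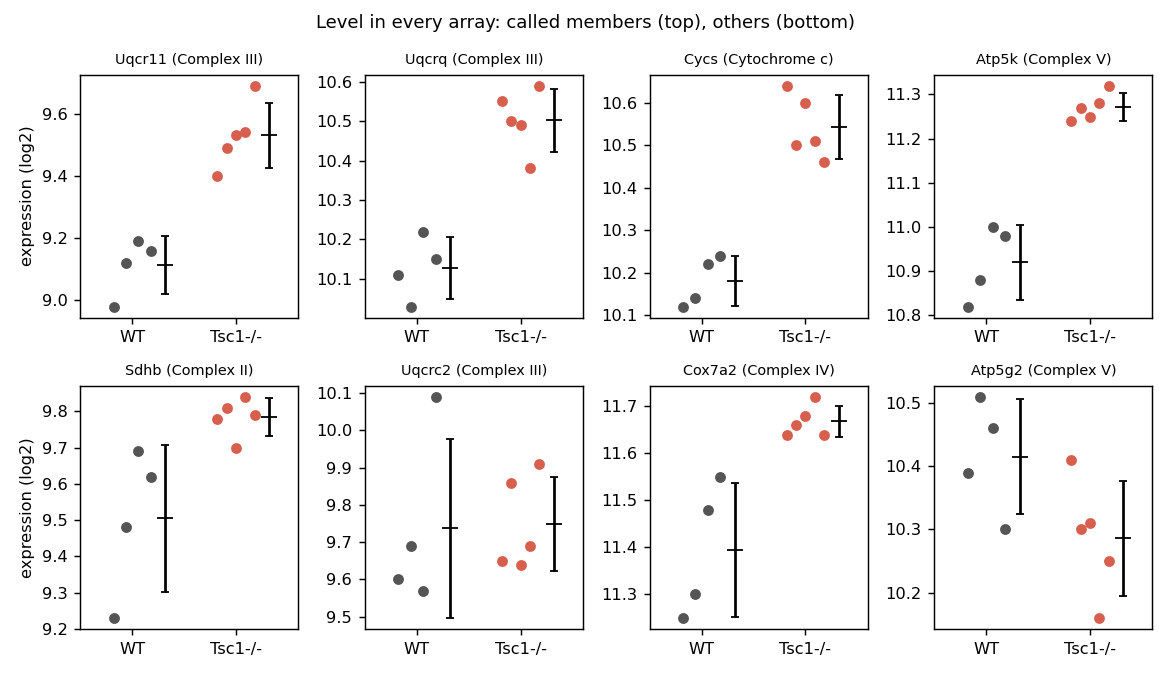
Expression in every array (log2 expression values per probe set, axes scaled to each gene) for the 4 members past the threshold (top) and for Sdhb, Uqcrc2, Cox7a2 and Atp5g2 (bottom), with the mean and SD of each group beside its points. The top genes do not overlap between genotypes, while the difference of Uqcrc2 is 0.01 and that of Atp5g2 is -0.13.

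The promoters of these genes are shown because genes for respiratory subunits are known targets of the factors NRF1, GABPA (of the ETS family), YY1 and ESRRA. The sequences are those of RefSeq, build GRCm38.p6, 250 bases before to 50 after the start, 5′ to 3′ on the strand of the gene, with matches to the motifs searched in capitals. RefSeq's table held promoters for Cycs, Uqcr11 and Atp5k of the 4 called genes.
Cycs, chr6:50566520-50566819, - strand: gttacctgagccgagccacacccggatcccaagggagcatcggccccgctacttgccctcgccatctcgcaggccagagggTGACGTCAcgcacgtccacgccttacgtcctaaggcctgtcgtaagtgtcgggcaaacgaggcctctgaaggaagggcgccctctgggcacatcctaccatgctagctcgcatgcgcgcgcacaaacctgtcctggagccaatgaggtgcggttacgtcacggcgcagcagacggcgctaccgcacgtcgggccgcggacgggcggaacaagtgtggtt
Uqcr11, chr10:80406772-80407071, - strand: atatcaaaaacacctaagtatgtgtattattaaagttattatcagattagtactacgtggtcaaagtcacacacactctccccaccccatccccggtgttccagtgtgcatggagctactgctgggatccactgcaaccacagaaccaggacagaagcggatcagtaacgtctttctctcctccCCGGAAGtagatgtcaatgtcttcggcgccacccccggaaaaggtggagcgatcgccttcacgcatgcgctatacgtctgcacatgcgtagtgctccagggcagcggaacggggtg
Atp5k, chr5:108434350-108434649, - strand: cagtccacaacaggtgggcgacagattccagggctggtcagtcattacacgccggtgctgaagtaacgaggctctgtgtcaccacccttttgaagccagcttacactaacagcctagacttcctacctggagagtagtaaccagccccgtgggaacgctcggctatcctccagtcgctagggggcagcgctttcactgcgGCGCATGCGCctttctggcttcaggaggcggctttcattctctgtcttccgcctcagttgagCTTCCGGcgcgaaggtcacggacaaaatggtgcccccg

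Both strands of each promoter were searched for the letters GCGCANGCGC (NRF1), CCGGAAG (ETS), AAGATGGC (YY1), TCAAGGTCA (ESRRA) and TGACGTCA (CREB), of which none overlapped another in the sequences shown. The Atp5k promoter holds the NRF1 and the ETS letters, that of Uqcr11 the ETS letters and that of Cycs the CREB letters, which were added to the search after its sequence had been read. Of 38 promoters of 35 members, 26.3% held the NRF1 letters, against 4.60% of all 32851 promoters in the table. The shares were 31.6% against 8.86% for ETS, 7.89% against 2.75% for YY1, 5.26% against 0.423% for ESRRA and 5.26% against 1.79% for CREB. Members with the NRF1 letters include Atp5k, which rose, and Sdha (0.07) and Atp5g2 (-0.13), which did not pass. A match is a description of the letters in this window and not a measured binding site. Only exact letters were counted, so a promoter without a match may still hold a site. The Cycs and Uqcr11 sequences shown each hold all the NRF1 letters but the first.

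Complex II, which also acts in the citric acid cycle, has nuclear-encoded subunits only. All 4 genes had positive differences and none passed, with a median of 0.23. Sdhb, the iron-sulfur subunit, read 9.23, 9.48, 9.69 and 9.62 in WT and 9.78, 9.81, 9.70, 9.84 and 9.79 in Tsc1-/-, a difference of 0.28 (adjusted p = 0.157, limma). WT replicate 1 was the lowest array, and the genotypes were parted by only 0.01. The membrane anchor Sdhc read 8.46, 8.65, 8.38 and 8.26 in WT and 8.81, 8.71, 8.68, 8.61 and 8.90 in Tsc1-/-, where 1 Tsc1-/- array lay below the highest WT array (0.30, adjusted p = 0.126, limma).

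Sdhd, the other anchor, read 10.09, 10.21, 10.25 and 10.04 in WT and 10.41, 10.29, 10.22, 10.35 and 10.37 in Tsc1-/- (0.18, adjusted p = 0.259, limma). The flavoprotein Sdha, which binds succinate, read 9.63, 9.75, 9.60 and 9.76 in WT and 9.76, 9.73, 9.69, 9.75 and 9.88 in Tsc1-/-. The genotypes overlapped for both, and the 95% interval of the Sdha difference (0.07) ran from -0.09 to 0.24.

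In complex III the small subunits differed more than the subunits that carry electrons or form the matrix core. The grouping by role is textbook knowledge applied after the values were seen, and it was not tested. The 4 small subunit genes Uqcr11, Uqcrq, Uqcrb and Uqcr10 differed by 0.33 to 0.42, 2 of them past the threshold. The other 4, Cyc1 (cytochrome c1), Uqcrfs1 (the Rieske iron-sulfur protein) and the core proteins Uqcrc1 and Uqcrc2, differed by 0.01 to 0.13, none past it.

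Uqcr10 read 10.40, 10.41, 10.61 and 10.61 in WT and 10.71, 10.81, 10.91, 10.82 and 10.96 in Tsc1-/-, without overlap (0.33, adjusted p = 0.0703, limma). Uqcrb differed by 0.38 (adjusted p = 0.117, limma), and its WT arrays spread from 8.37 to 9.01, past the lowest Tsc1-/- array at 8.97. At the other end, Uqcrc2 read 9.60, 9.69, 9.57 and 10.09 in WT and 9.65, 9.86, 9.64, 9.69 and 9.91 in Tsc1-/-. The highest Uqcrc2 level was that of WT replicate 4, and the 95% interval of its difference, -0.23 to 0.26, left its direction undetermined. The mean level of the small subunits was 9.48 to 9.73 in WT and 9.94 to 10.07 in Tsc1-/-, while that of the other 4 overlapped at 9.14 to 9.36 and 9.17 to 9.37.

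Complex IV, cytochrome c oxidase, had no member past the threshold. Its 17 members divide into 10 genes expressed in most tissues and 7 isoform genes known from particular tissues, such as heart and skeletal muscle (Cox6a2, Cox7a1, Cox8b), lung (Cox4i2) and testis (Cox6b2, Cox7b2, Cox8c). The 10 widely expressed genes had a median difference of 0.14, with 9 positive, and a mean level of 11.27 to 11.41 in WT and 11.42 to 11.51 in Tsc1-/-. The 7 isoform genes had a median of -0.02, with 3 positive, and overlapping mean levels of 5.92 to 6.07 and 5.90 to 6.05. The median over all 17 was 0.05.

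Of the widely expressed genes, Cox7a2 differed most. It read 11.25, 11.30, 11.48 and 11.55 in WT and 11.64, 11.66, 11.68, 11.72 and 11.64 in Tsc1-/-, without overlap (0.27, adjusted p = 0.108, limma), and its second probe set also differed by 0.27. Cox6b1, on the intermembrane face, read 11.47, 11.48, 11.62 and 11.69 in WT and 11.68, 11.81, 11.85, 11.84 and 11.86 in Tsc1-/-. Only Tsc1-/- replicate 1 lay below a WT array (0.24, adjusted p = 0.139, limma). Cox5b, which binds zinc, read 11.66, 11.78, 11.79 and 11.99 in WT and 12.03, 12.09, 12.03, 12.03 and 12.02 in Tsc1-/-, parted by 0.03 (0.23, adjusted p = 0.151, limma). Cox5a differed by 0.24, Cox6c by 0.15 and Cox6a1 by 0.14, while Cox4i1, Cox7c and Cox8a each differed by 0.05, with 95% intervals of at most -0.11 to 0.21.

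Cox7a2l, known as a factor for supercomplexes of complexes III and IV, was the widely expressed gene with a negative difference. Whether its product has that function in this mouse strain was not examined. It read 11.69, 11.71, 11.64 and 11.56 in WT and 11.33, 11.61, 11.52, 11.52 and 11.64 in Tsc1-/-, with overlap (-0.13, adjusted p = 0.470, limma). Its further probe sets differed by -0.18 and -0.11. Among the isoform genes, Cox6a2 had the lowest difference of all members, -0.25 (adjusted p = 0.240, limma), with levels of 7.25, 7.28, 7.39 and 7.02 in WT and 7.13, 6.78, 7.10, 7.09 and 6.81 in Tsc1-/-. Cox6b2 had the highest, 0.27 (adjusted p = 0.266, limma), with levels of 6.44, 5.90, 6.19 and 6.40 in WT and 6.52, 6.70, 6.57, 6.27 and 6.48 in Tsc1-/-. Both overlapped between genotypes. The WT means of the 7 isoform genes ran from 3.87 to 7.24, where the median level over all genes was 6.34.

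In complex V, 16 of 17 genes had positive differences, with a median of 0.21. The genotypes did not overlap in 9 genes, all higher in Tsc1-/- (52.9%, against 5.08% of all genes). Atp5k alone passed (5.88%, against 0.971% of all genes). The 5 small membrane subunit genes, Atp5k (e), Atp5l (g), Atp5j2 (f), Atp5md (DAPIT) and Atp5mpl, differed by 0.17 to 0.35, and none overlapped between genotypes. The 4 genes of the peripheral stalk, which holds the head still while the rotor turns, differed by 0.14 to 0.31. The 5 genes of the F1 head and central shaft differed by 0.02 to 0.23, and all 5 overlapped. As for complex III, these roles were assigned after the values were seen.

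The head genes were Atp5b (0.23), the catalytic beta subunit, Atp5a1 (alpha, 0.13), Atp5e (epsilon, 0.12), Atp5c1 (gamma, 0.08) and Atp5d (delta, 0.02), with adjusted p of 0.299 or higher (limma). Of the stalk genes, Atp5j, coupling factor F6, read 10.39, 10.47, 10.45 and 10.47 in WT and 10.69, 10.81, 10.68, 10.71 and 10.76 in Tsc1-/-. It just missed the threshold (0.28, adjusted p = 0.0628, limma), with the groups 0.21 apart. Atp5o, which links the stalk to the head, differed by 0.31 (adjusted p = 0.0761), Atp5pb by 0.21 and Atp5h by 0.14.

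Atp5g1, Atp5g2 and Atp5g3 encode the same mature subunit of the rotor ring, known as subunit c, with different targeting sequences. Atp5g1 read 9.70, 9.89, 9.89 and 9.83 in WT and 10.16, 10.10, 10.11, 10.07 and 10.10 in Tsc1-/-, without overlap (0.28, adjusted p = 0.0738, limma). Its dimmer probe set (WT mean 6.04) differed by -0.09, with overlap, and the mean of both by 0.10 (adjusted p = 0.515, limma). Atp5g3 differed by 0.20, also without overlap (adjusted p = 0.196, limma). Atp5g2 was the complex V gene with a negative difference, and it read 10.39, 10.51, 10.46 and 10.30 in WT and 10.41, 10.30, 10.31, 10.16 and 10.25 in Tsc1-/- (-0.13, 95% interval -0.30 to 0.05, adjusted p = 0.450, limma). None of these 3 genes for subunit c passed, and the separation of Atp5g1 was seen in 1 of its 2 probe sets.

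**Figure D3:**
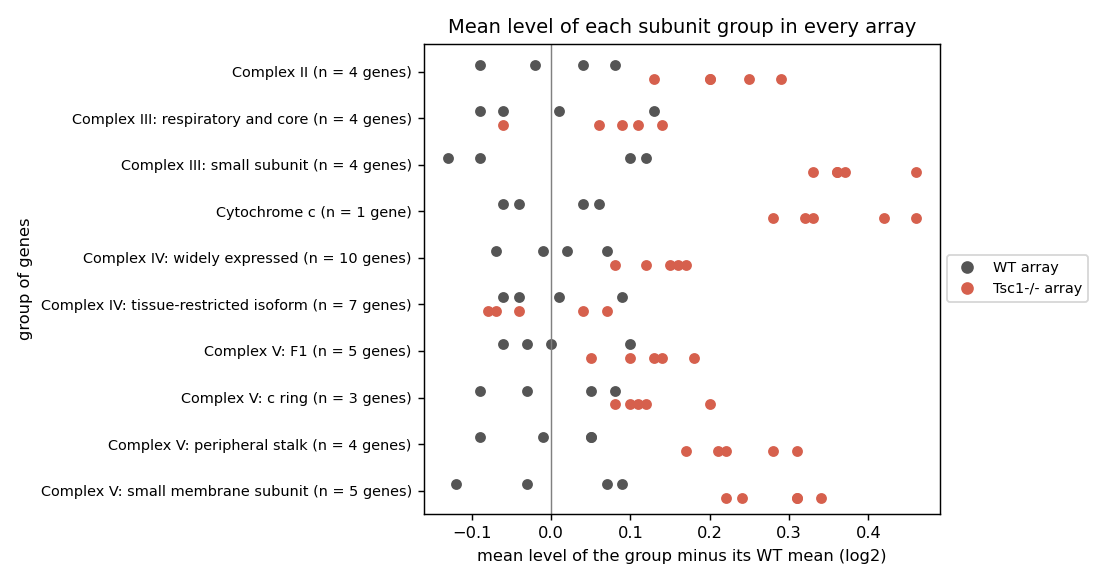
Mean level of each group of subunit genes in every array, minus the mean of the 4 WT arrays (log2 scale); each point is 1 array. The genotypes part in complex II, cytochrome c, the small subunits of complex III and the widely expressed genes of complex IV. They also part in the peripheral stalk and small membrane subunits of complex V. The respiratory and core subunits of complex III, the F1 and c ring genes and the tissue-restricted isoforms of complex IV overlap.

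The arrays were not alike within a genotype. Among the 40 members other than tissue-restricted isoforms, WT replicate 1 was the lowest of all 9 arrays for 24 genes, and Tsc1-/- replicate 5 was the highest for 17. The mean level of complex V was 10.64 in WT replicate 1 and 10.76 to 10.78 in the other WT arrays, against 10.91 to 10.98 in Tsc1-/-. In complex III, WT replicates 1 and 2 both lay at 9.33, WT replicates 3 and 4 at 9.47 and 9.55, and Tsc1-/- at 9.57 to 9.72. Complex II read 9.35 to 9.52 in WT and 9.57 to 9.73 in Tsc1-/-, and all of complex IV overlapped at 9.08 to 9.19 and 9.16 to 9.26.

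Of the 47 members, 20 had several probe sets, and in 14 of them all probe sets differed in 1 direction. Of 30 further probe sets, 20 had a positive difference. Further probe sets of Uqcr10 (0.31), Cox5a (0.35), Cox5b (0.29), Atp5j2 (0.29) and Atp5o (0.27) did not overlap between genotypes, and of their main probe sets only that of Cox5a did. Another of Uqcr10 (0.16) and the dim pair of Cox5b (-0.11 and -0.01, at WT means of 6.34 and 4.70) overlapped. With the mean of its probe sets Cox5b differed by 0.10 (adjusted p = 0.572, limma). The lowest was a dim probe set of Atp5c1 at -0.51, with overlap. With all 45037 probe sets fitted separately, 0 of the 77 member probe sets passed (limma; 32 were higher at an unadjusted p under 0.05).

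Genes that work with these complexes were counted from lists chosen for their function. Complex I, which feeds electrons from NADH, had positive differences in all 32 measured subunit genes, with a median of 0.26. Past the threshold were 3 (9.38%, against 0.971% of all genes), Ndufc2 (0.42), Ndufs8 (0.39) and Ndufa11 (0.43). The genotypes did not overlap in 17 complex I genes, all higher in Tsc1-/- (53.1%, against 5.08% of all genes). Of 34 assembly factors of complexes II to V, 26 had positive differences, with a median of 0.12, and 2 were called higher (5.88%). Both that rose act on complex IV: Cmc2 by 0.56 (adjusted p = 0.0314, limma), from 8.96 ± 0.18 to 9.52 ± 0.07 (SD, n = 4 and 5), and Pet100 by 0.47 (adjusted p = 0.0375, limma).

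Of 9 measured genes for ATP and ADP exchange and synthase accessories, Atpif1 alone rose (11.1%, against 0.971% of all genes). It encodes the peptide that inhibits the ATP synthase when it runs backwards, and it went from 9.92 ± 0.16 (SD, n = 4) to 10.38 ± 0.03 (SD, n = 5), by 0.46 (SE 0.08, adjusted p = 0.0339, limma). The adenine nucleotide carriers Slc25a4 and Slc25a5 differed by -0.07 and 0.04, the phosphate carrier Slc25a3 by -0.09, and Ndufa4, now counted with complex IV, by 0.26 (adjusted p = 0.156, limma).

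None of 15 regulators of mitochondrial biogenesis passed, and their median difference was 0.04. Those with the smallest p were Tfb1m (0.39, adjusted p = 0.0996) and Tfam (0.27, adjusted p = 0.171), which act in mitochondrial RNA methylation and in transcription of mitochondrial DNA (limma). The factors named above for the promoters differed by 0.09 (Nrf1), 0.07 (Gabpa), -0.02 (Yy1) and -0.14 (Esrra). None of 9 genes of cytochrome c release and the apoptosome passed. Bak1, which opens the outer membrane, differed by 0.31 (adjusted p = 0.0703) and Apaf1, which binds released cytochrome c, by 0.13 (adjusted p = 0.445, limma).

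**Figure D4:**
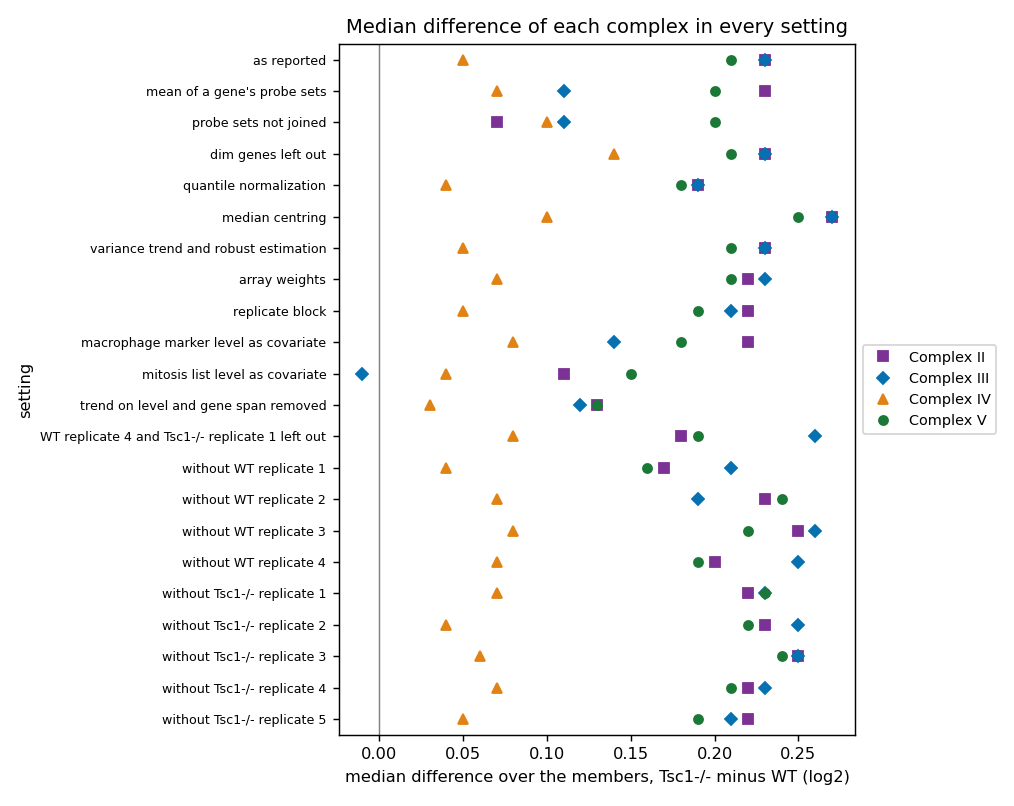
Median difference over the members of each complex, Tsc1-/- minus WT on the log2 scale, under each setting of the processing and with each array left out. Complexes II and V stay above 0 in all settings shown, at 0.07 to 0.27 and 0.13 to 0.25, complex IV lies at 0.03 to 0.14, and complex III reaches -0.01 with the mitosis level as a covariate.

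The count of 4 called members depended on the arrays. It was 0 without WT replicate 1, WT replicate 2, WT replicate 3, Tsc1-/- replicate 2, Tsc1-/- replicate 3, Tsc1-/- replicate 4 or Tsc1-/- replicate 5. In the same order, those fits called 1, 2, 70, 6, 41, 21 and 1 of all genes higher, against 166 with all arrays. The count of members was 1 without Tsc1-/- replicate 1 (Uqcr11) and 6 without WT replicate 4 (Uqcr11, Uqcrq, Uqcrb, Cycs, Atp5k and Atp5o). Of all genes, 142 and 297 were called higher in these 2 fits. Without WT replicate 4 and Tsc1-/- replicate 1 together the count of members was 3 (Uqcr11, Atp5k and Atp5o), and 248 of all genes were called higher. The differences of the 4 genes with 1 array left out were 0.37 to 0.45 for Uqcr11, 0.34 to 0.41 for Uqcrq, 0.34 to 0.38 for Cycs and 0.32 to 0.38 for Atp5k. With the mean of each gene's probe sets the count was 3 (Uqcr11, Atp5k and Atp5j), and Uqcrq and Cycs were lost. That fit called 174 of all genes higher and 64 lower. With array weights the count was 6 (Uqcr11, Uqcrq, Uqcr10, Cycs, Atp5k and Atp5j), and 340 of all genes were called higher and 125 lower.

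With the macrophage level as a covariate, 0 members passed (8 were higher at an unadjusted p under 0.05) and the median over the 47 was 0.15. With the mitosis level, 0 passed (2 were higher at an unadjusted p under 0.05), the median was 0.10 and 34 of 47 were positive. With either covariate, 0 of all 17097 genes passed in either direction, so the loss of calls was not particular to the members. The mitosis level took Uqcr11 to 0.33, Uqcrq to 0.23, Cycs to 0.24 and Atp5k to 0.22. With each array's trend on level and gene span removed, 0 passed (17 were higher at an unadjusted p under 0.05), the median was 0.10 and 35 were positive, with Uqcr11 at 0.28, Uqcrq at 0.26, Cycs at 0.25 and Atp5k at 0.31. The mitosis level did not overlap between genotypes, so this covariate and genotype cannot be fully told apart.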

How the data were processed

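The authors deposited log2 expression values for 45037 probe sets of 9 arrays. Per the submitters' processing notes they were made with RMA, which corrects background, quantile normalizes across arrays and summarises probe sets, and with Partek 6.5. Its options and any filters were not stated. A change shared by most transcripts would be removed by RMA. Precision is limited by the number of arrays. Each sample's 12 ng of RNA was converted to biotin-labelled cDNA with NuGEN kits, per the labels.

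The platform annotation gave 1 gene for 28898 probe sets, several for 551 and none for 15588. Symbols were updated by Entrez identifier with RefSeq's GRCm38.p6 table (28689 matched). The brightest probe set represented each of 17097 genes, with no filter on dim genes. Groups followed the genotype in the labels. Genes were fitted in R 4.3.3 by limma 3.58.1 (lmFit, then eBayes), two-sided, with genotype as the only term, and the fit was tested on simulated data. It recovered 2% of simulated log2 changes of 0.25, 20% of those of 0.35, 60% of those of 0.5 and 98% of those of 1. A gene that did not pass may therefore still differ. The sources do not say that each sample is a separate mouse, so the p-values reflect only how these samples spread, which may be technical.

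The members, lists and tests were chosen with earlier results of these data known. Values in every array are given for members past the threshold, the 3 with the smallest p and those with the highest and lowest difference of each complex, and, chosen after their values were seen, for Cox7a2l. From each list, members past the threshold, or otherwise 1 or 2 with the smallest p, are named, and others, such as Cd3e, Cd8a and Cd8b1, by their role. Alternatives were the mean of probe sets, probe sets not joined, genes with a mean under 6.34 left out, quantile normalization, median centring, array weights, robust estimation with a variance trend, a replicate block, marker levels as covariates, removal of each array's trend (loess, span 0.3), an adjusted p under 0.1 and arrays left out. Same-numbered samples' deviations from their group means correlated at -0.098 to 0.0933 over all genes. Such values cannot show whether the numbers pair the samples. The planned comparison of protein sequences between related members was not run, and no protein sequences were used here. Figures were drawn in Python 3.11.15.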

Additional observations from a re-analysis of the deposited data

Results flagged for a closer look

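In 3 of the groups checked, 1 array lay apart from the rest of its genotype by Dixon's gap test, which flags about 1 in 20 groups by chance, and 46 groups were checked. Cox6b1 read 11.68 in Tsc1-/- replicate 1, against 11.81 to 11.86 in the other Tsc1-/- arrays, which made its genotypes overlap. Cox5b read 12.09 in Tsc1-/- replicate 2, against 12.02 to 12.03 in the others of that genotype. The mean level of complex V was 10.64 in WT replicate 1, against 10.76 to 10.78 in the other WT arrays, and without that array the median difference of complex V was 0.16 in place of 0.21.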

How the results depend on the processing

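The count of 4 higher members was 0 with probe sets not joined, quantile normalization, the replicate block, the macrophage or mitosis level as a covariate, or the trend on level and gene span removed, 7 with median centring, 10 at an adjusted p under 0.1, 12 with dim genes left out, 16 with a variance trend and robust estimation, and 0 to 6 with 1 array left out. No setting gave a lower member. All genes' counts moved too. They went from 166 higher and 53 lower to 0 and 0 with the replicate block or either covariate. Without WT replicate 1 they were 1 and 1. They were 58 and 32 with quantile normalization, and 49 and 44 with the trend removed. Median centring gave 381 and 57, and a variance trend with robust estimation gave 509 and 171. Of 8549 genes fitted with dim genes left out, 542 were higher and 140 lower. Of 45037 probe sets not joined, 69 were higher and 39 lower. The count over all genes at an adjusted p under 0.1 is not given here. The replicate block leaves Tsc1-/- replicate 5 without a partner, and whether the numbers pair the samples is not known. The median of complex II (0.23) was 0.07 with probe sets not joined, 0.11 with the mitosis level and 0.13 with the trend removed. That of complex III (0.23) was 0.11 with the mean of probe sets and with probe sets not joined, 0.14 with the macrophage level, 0.12 with the trend removed and -0.01 with the mitosis level. That of complex IV (0.05) was 0.14 with dim genes left out and 0.10 with median centring or probe sets not joined, and that of complex V (0.21) was 0.15 with the mitosis level, 0.13 with the trend removed and 0.16 to 0.24 with 1 array left out. Tsc1 (-0.26) passed with dim genes left out (-0.26, adjusted p = 0.0483). Of 21 other settings, Uqcr11 passed in 8, Atp5k in 7, and Uqcrq and Cycs in 5 each, all with positive differences. Among genes not called, Uqcrc2 turned to -0.03 (quantile normalization, replicate block), -0.24 (macrophage level), -0.17 (mitosis level), -0.06 (trend removed) and -0.04 to 0.13 with 1 array left out, Sdha to -0.02 (mean of probe sets), Sdhb to -0.02 (mitosis level) and Atp5g2 to 0.02 (macrophage level). With probe sets not joined, each median was taken over probe sets. Sdha then entered complex II with 0.07, 0.05, -0.03 and -0.19, and Uqcrq entered complex III with 0.38, -0.04, 0.01 and 0.06. The cause of the other moves was not tested. Fewer genes or arrays were fitted where some were left out.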
